A study of Mus musculus with 15 samples.

Results

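Markers of fibro-adipogenic progenitors, the fibroblast-like cells that lie between muscle fibres, were followed in the plantaris muscle of trained, detrained and untrained mice. The 10 genes were Pdgfra, Cd34, Clec3b, Serping1, Lum, Dcn, Dpt, Pi16, Ly6a and Dpp4. They were chosen by gene symbol as known markers of these cells, out of 20406 genes listed in the deposited count table, and all 10 were listed and passed the filter on low counts. The markers and the gene lists used below were chosen with earlier results of these data known. Shares of all genes set beside them are therefore descriptions. RNA of whole muscle was sequenced in 15 libraries from adult male HSA-GFP mice, in which a human skeletal actin promoter drives an inducible histone 2B-GFP label in the nuclei of muscle fibres, in every group. The mice started at 4 months of age. The 5 groups of 3 libraries were trained mice of 6 months after 8 weeks of progressive weighted wheel running (6M_PoW), a further block titled as trained at 6 months (6M_POW_LD), untrained mice of 6 months (6M_UT), detrained mice of 9 months, which had trained for 8 weeks and then stopped for 12 weeks (9M_PoW+DT), and untrained mice of 9 months (9M_UT). Groups follow the titles. In 9 libraries the treatment field went against the title, naming the opposite condition for all 6 libraries of 9 months and calling the 3 libraries of 6M_POW_LD sedentary. The identifiers in the titles also form separate series for the first 6-month libraries, the LD libraries and the 9-month libraries, so that age and LD cannot be told apart from library series. The titles give each library its own identifier without saying whether it stands for a mouse. Libraries of 1 group differed by more than counting noise (chi-square per degree of freedom of 10.1 to 48.4), and whether that spread is between animals or technical is not stated.

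Fibro-adipogenic progenitors are mesenchymal cells of the muscle interstitium that make extracellular matrix and release factors that act on muscle stem cells during repair. They can give rise to fibroblasts and to fat cells, and they carry the receptor PDGFRα on their surface. Several of their markers are shared with other cells. Cd34 and Ly6a, which encodes SCA-1, are also made by endothelial cells, Cd34 by muscle stem cells as well, and Serping1 is made by many cell types. A change in whole-muscle RNA cannot tell fewer or more cells of a type from less or more RNA per cell.

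The genes lie on 7 chromosomes, and only Dcn and Lum are neighbours. On mm10, Dcn spans chromosome 10 from 97479609 to 97518143 and Lum from 97565128 to 97572703, both on the plus strand, with 46984 bases and 0 listed genes between them. Pdgfra spans chromosome 5 from 75152292 to 75198215 (plus strand), Cd34 chromosome 1 from 194938819 to 194961279 (plus), Dpt chromosome 1 from 164796644 to 164824266 (plus) and Clec3b chromosome 9 from 123150946 to 123157432 (plus). Serping1 spans chromosome 2 from 84765387 to 84775444 (minus strand), Dpp4 chromosome 2 from 62330073 to 62412231 (minus), Pi16 chromosome 17 from 29317680 to 29330593 (plus) and Ly6a chromosome 15 from 74994877 to 74998031 (minus). Ly6a belongs to a cluster of closely similar genes, and no source used here says how reads were shared between them, so its values are uncertain.

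The title of the study concerns DNA methylation, which in mammals falls mainly on CpG pairs. RefSeq promoter entries (GRCm38.p6) were at hand for 5 of the 10 genes, and the 250 bases before the annotated start are shown for the receptor gene Pdgfra, for Cd34 and for Dpt, with CpG pairs in capitals. They are written in the 5′ to 3′ direction of the gene.
Pdgfra, chr5:75152001-75152250, + strand: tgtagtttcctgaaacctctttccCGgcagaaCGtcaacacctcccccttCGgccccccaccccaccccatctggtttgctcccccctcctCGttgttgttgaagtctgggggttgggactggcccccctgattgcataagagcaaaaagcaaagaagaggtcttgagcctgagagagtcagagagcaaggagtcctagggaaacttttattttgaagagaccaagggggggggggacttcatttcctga
Cd34, chr1:194938571-194938820, + strand: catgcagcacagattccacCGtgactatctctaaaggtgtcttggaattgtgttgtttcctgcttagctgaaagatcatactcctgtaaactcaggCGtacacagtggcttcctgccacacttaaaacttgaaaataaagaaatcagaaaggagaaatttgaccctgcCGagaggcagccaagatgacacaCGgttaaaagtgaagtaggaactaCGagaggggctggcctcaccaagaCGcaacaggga
Dpt, chr1:164796413-164796662, + strand: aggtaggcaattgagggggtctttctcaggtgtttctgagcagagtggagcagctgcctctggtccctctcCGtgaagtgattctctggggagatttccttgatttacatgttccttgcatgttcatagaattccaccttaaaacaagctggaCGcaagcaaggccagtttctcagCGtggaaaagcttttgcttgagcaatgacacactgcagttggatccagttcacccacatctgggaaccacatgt
These windows held 4 CpG pairs before Pdgfra, 6 before Cd34 and 3 before Dpt, and those of Dpp4 and Pi16 held 4 and 2. The Pi16 window, chr17:29318632-29318881, lies before its RefSeq start at 29318882 but inside the span given above for Pi16. Over 32851 promoter windows of the same length the median was 6, with quartiles of 2 and 16, so each of these 5 windows was at or below the median. The sequence TATAAA, sought on both strands, occurred in the Dpp4 window only among the 5, and in 12.4% of all windows. Methylation itself was not measured in the count table, and these counts describe letters in a window.

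Levels are given in CPM, counts per 1000000 of a library's effective total. Library totals were 18865048 to 27688842 counts, and the markers were counted well above the filter, from 4379 to 8428 counts for Dcn down to 29 to 104 for Dpp4. Summed over the 10 genes the level was 455 to 546 CPM in 6M_PoW, 475 to 586 in 6M_POW_LD, 383 to 388 in 6M_UT, 383 to 435 in 9M_PoW+DT and 450 to 476 in 9M_UT. Dcn made up most of these sums. For comparison, 8 genes of muscle fibres, among them Acta1, Ckm and Myh4, summed to 94970 to 132900 CPM. Divided by the length of all annotated exons, the mean CPM per kilobase over the 15 libraries was 42.8 for Dcn, 19.4 for Serping1, 18.1 for Clec3b, 16.95 for Ly6a, 13.7 for Dpt, 6.32 for Lum, 5.27 for Cd34, 2.83 for Pi16, 2.26 for Pdgfra and 0.466 for Dpp4. On this scale each gene from Serping1 down to Pdgfra overlapped with its neighbour in the order over the range of the libraries, whereas Dcn lay above all others and Dpp4 below all others.

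**Figure D1:**
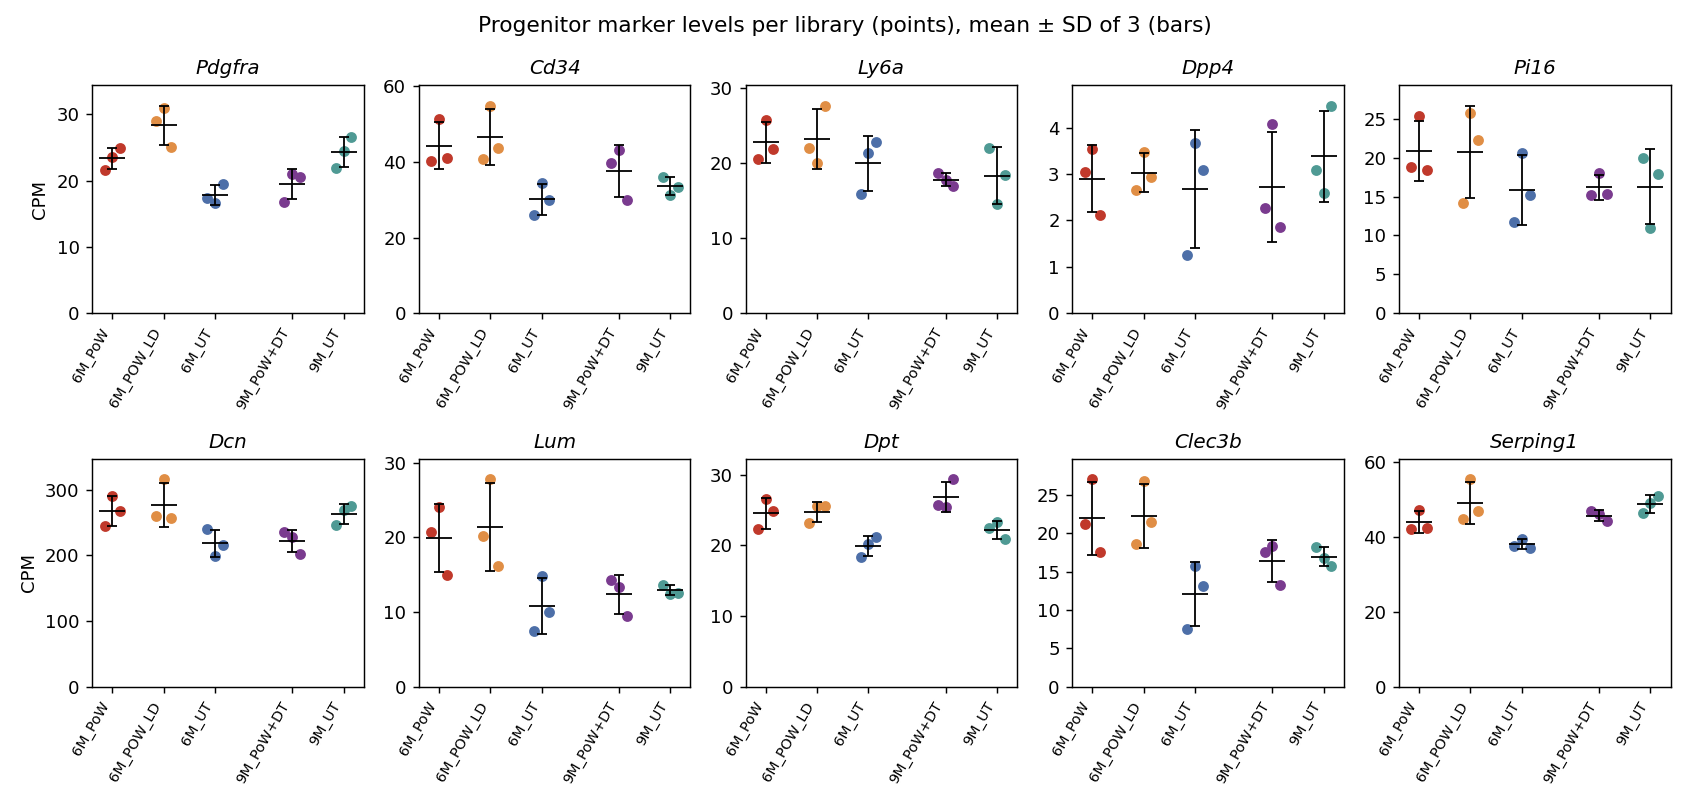
CPM of the 10 markers (y axis, from 0) in each library of the 5 groups (x axis), with points for libraries and bars for mean ± SD of 3. The 7 panels of Pdgfra, Cd34, Dcn, Lum, Dpt, Clec3b and Serping1 show all 6M_PoW and 6M_POW_LD points above all 6M_UT points.

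In trained against untrained mice of 6 months, all 10 markers had a log2 fold change above 0, and for 7 of them every trained library lay above every untrained library. The median log2 fold change was 0.35 over the 10 markers and 0.00 over the 14919 genes tested, of which 50.2% lay above 0. No overlap with the trained group above occurred in 7.89% of all genes. edgeR's quasi-likelihood test called 0 of the 10 markers, beside 0.0% of all genes. At an unadjusted p under 0.05, 7 markers were higher in this test, against 4.73% of all genes. limma-voom called 0 markers, beside 0.0% of all genes. DESeq2 called 3, which were Cd34, Clec3b and Lum, beside 0.832% of the 13467 genes with a DESeq2 adjusted p. The 6M_POW_LD libraries were set against the same 6M_UT libraries. There edgeR called 6 of the 10 markers, all higher, beside 2.15% of all 15181 genes called higher. All 10 were above 0, against 51.2% of all genes, and 7 did not overlap, against 12.6%; DESeq2 and limma-voom called the same 6, beside 4.58% of the 11646 genes with a DESeq2 adjusted p and 2.48% of all genes by limma-voom, called higher. The 6 were Pdgfra, Cd34, Clec3b, Serping1, Lum and Dcn, and the median over the 10 was 0.38 against 0.01 over all genes. At an unadjusted p under 0.05, 7 markers were higher, against 9.72% of all genes. The markers' values in both comparisons follow by role; because the comparisons share their controls, they are not independent of each other.

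Pdgfra encodes the receptor for platelet-derived growth factors that defines these progenitors. It stood at 21.6, 23.6 and 24.9 CPM in 6M_PoW, at 29.04, 30.9 and 25.1 CPM in 6M_POW_LD, and at 17.4, 16.6 and 19.5 CPM in 6M_UT. The groups did not overlap, and the LD libraries were also all above the 6M_PoW libraries. The log2 fold change was 0.39 ± 0.12 (SE, edgeR adjusted p = 0.271) in 6M_PoW and 0.67 ± 0.12 (adjusted p = 0.00269) in 6M_POW_LD, both against 6M_UT. Of the 6 calls, that of Pdgfra held in each of 21 alternatives, at an adjusted p of 2.23e-05 to 0.0198.

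Cd34 encodes a heavily glycosylated membrane protein of progenitor and vessel cells. It stood at 40.3, 51.4 and 41.1 CPM in 6M_PoW, at 40.9, 54.9 and 43.7 CPM in 6M_POW_LD and at 25.96, 34.3 and 29.9 CPM in 6M_UT. Each trained or LD library was above each untrained library. The log2 fold change was 0.56 ± 0.14 in 6M_PoW (edgeR adjusted p = 0.205) and 0.63 ± 0.15 in 6M_POW_LD (adjusted p = 0.0217).

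Ly6a, whose product SCA-1 is used to sort these cells, and Dpp4, which encodes a membrane peptidase of the most immature fibroblasts, did not separate the groups. Ly6a averaged 22.8 ± 2.71 CPM in 6M_PoW, 23.2 ± 3.98 CPM in 6M_POW_LD and 19.98 ± 3.65 CPM in 6M_UT (SD, n = 3 each). Dpp4, the least abundant of the markers, averaged 2.90 ± 0.728 CPM, 3.03 ± 0.421 CPM and 2.68 ± 1.27 CPM in these groups. Pi16, a peptidase inhibitor gene that marks the same immature fibroblasts as Dpp4, averaged 20.9 ± 3.90, 20.7 ± 5.97 and 15.9 ± 4.51 CPM. The log2 fold changes in 6M_PoW were 0.19 ± 0.16 for Ly6a, 0.11 ± 0.39 for Dpp4 and 0.40 ± 0.24 for Pi16 (edgeR adjusted p = 0.731, 0.95 and 0.63), and in 6M_POW_LD 0.22 ± 0.16, 0.17 ± 0.36 and 0.39 ± 0.27 (adjusted p = 0.487, 0.835 and 0.462). Without 6M_UT replicate 1, Dpp4 stood at -0.22 in 6M_PoW and at -0.16 in 6M_POW_LD. Leaving out 1 library at a time, Ly6a ranged from 0.05 to 0.29 in 6M_PoW and from 0.07 to 0.32 in 6M_POW_LD, and Pi16 from 0.22 to 0.64 and from 0.20 to 0.63.

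Lum and Dcn encode lumican and decorin, small leucine-rich proteoglycans that bind collagen fibrils. Lum stood at 20.8, 24.1 and 14.97 CPM in 6M_PoW, at 20.1, 27.8 and 16.2 CPM in 6M_POW_LD and at 7.52, 14.8 and 10.1 CPM in 6M_UT. The gap between the groups was narrow, since the lowest trained library held only slightly more than the highest untrained library. The log2 fold change was 0.88 ± 0.23 in 6M_PoW (edgeR adjusted p = 0.238) and 0.98 ± 0.26 in 6M_POW_LD (adjusted p = 0.0447). These were the largest of the 10 markers in both, but within 1 SE of those of Clec3b. Without 6M_UT replicate 3, Clec3b stood above Lum in 6M_POW_LD, at 0.936 against 0.927. Dcn stood at 244, 291 and 268 CPM in 6M_PoW, at 260, 316 and 257 CPM in 6M_POW_LD and at 240, 199 and 216 CPM in 6M_UT. Its log2 fold changes were smaller, at 0.29 ± 0.09 (adjusted p = 0.274) and 0.34 ± 0.09 (adjusted p = 0.0426).

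Because Lum and Dcn are read from the same library, their ratio does not depend on how libraries were scaled. Lum counts were 8.49%, 8.27% and 5.59% of Dcn counts in 6M_PoW, 7.75%, 8.79% and 6.30% in 6M_POW_LD, and 3.14%, 7.45% and 4.66% in 6M_UT. The untrained libraries overlapped with the others here, through 6M_UT replicate 2. At 9 months the share was 6.07%, 5.85% and 4.68% in 9M_PoW+DT and 5.55%, 4.63% and 4.58% in 9M_UT.

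**Figure D2:**
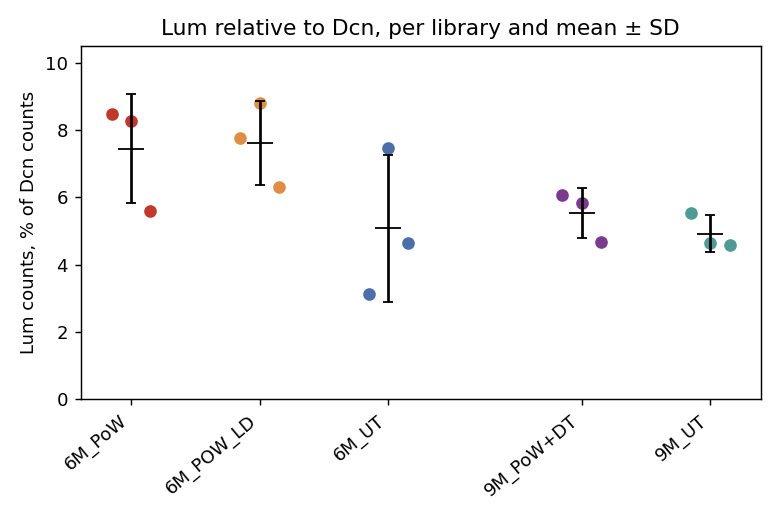
Counts of Lum as a percentage of counts of Dcn (y axis, from 0) in each library of the 5 groups (x axis), with points for libraries and bars for mean ± SD of 3. The spread is widest in 6M_UT, from 3.14% to 7.45%, and narrowest in 9M_UT, from 4.58% to 5.55%.

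Dpt, Clec3b and Serping1 encode secreted proteins. Dermatopontin (Dpt) binds decorin and collagen. Dpt stood at 22.3, 26.5 and 24.8 CPM in 6M_PoW, at 23.1, 25.6 and 25.5 CPM in 6M_POW_LD and at 18.4, 20.2 and 21.1 CPM in 6M_UT. Again no untrained library reached a trained one, but the log2 fold changes of 0.30 ± 0.10 and 0.31 ± 0.10 were not called (edgeR adjusted p = 0.36 and 0.081). Clec3b encodes tetranectin, a plasminogen-binding lectin. Clec3b stood at 21.3, 27.02 and 17.6 CPM in 6M_PoW, at 18.6, 26.8 and 21.5 CPM in 6M_POW_LD and at 7.48, 15.7 and 13.2 CPM in 6M_UT. The log2 fold changes were 0.86 ± 0.24 (adjusted p = 0.257) and 0.88 ± 0.23 (adjusted p = 0.0472). Serping1, the gene of the C1 inhibitor that restrains the first step of complement, had the smallest within-group SD of log2 CPM of the markers, at 0.094. Without 6M_UT replicate 1 this SD was 0.096, against 0.095 for Dpt. Serping1 averaged 43.9 ± 2.96 CPM in 6M_PoW, 49.1 ± 5.55 CPM in 6M_POW_LD and 38.1 ± 1.31 CPM in 6M_UT (SD, n = 3 each), with log2 fold changes of 0.21 ± 0.08 (adjusted p = 0.424) and 0.37 ± 0.09 (adjusted p = 0.022).

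Apart from that of Pdgfra, each call in 6M_POW_LD ended when 1 or another library was left out, in some cases at a lower fold change and in others at a similar or higher one. Without 6M_POW_LD replicate 5, the library with the highest level of 6 of the 10 markers, only 1 call was left, and the log2 fold changes were 0.49 for Cd34, 0.72 for Clec3b, 0.27 for Serping1, 0.74 for Lum and 0.24 for Dcn (edgeR adjusted p = 0.113, 0.179, 0.133, 0.171 and 0.225). That library also held a summed level of 7 Schwann cell markers of 161 CPM, against 63.1 and 68.4 CPM in the other LD libraries and 41.0 to 64.8 CPM in the other groups; the part of nerve RNA in its marker levels was not tested. Without 6M_UT replicate 1, the library with the lowest level of 5 of the 10 markers, 2 calls were left, with 0.53 for Cd34, 0.63 for Clec3b, 0.36 for Serping1 and 0.77 for Lum (adjusted p = 0.0926, 0.0938, 0.072 and 0.152). Without 6M_UT replicate 3, 1 call was left, with 0.62 for Cd34, 0.94 for Clec3b, 0.35 for Serping1, 0.93 for Lum and 0.34 for Dcn (adjusted p = 0.0624 to 0.128), and without 6M_UT replicate 2 that of Dcn ended (0.28, adjusted p = 0.128). With 6M_POW_LD replicate 4 left out, the calls of Clec3b, Lum and Dcn ended at higher fold changes of 0.99, 1.02 and 0.39 (adjusted p = 0.058, 0.0889 and 0.0567), and with 6M_POW_LD replicate 6 left out that of Clec3b at 0.90 (adjusted p = 0.101). Clec3b and Lum also lost theirs when 6M_PoW replicate 1, 1 of the 3 libraries of 9M_UT, or replicate 1 or 2 of 9M_PoW+DT was dropped (adjusted p = 0.0534 to 0.0688), and Dcn when 6M_PoW replicate 3, replicate 2 or 3 of 9M_UT, or 9M_PoW+DT replicate 2 was dropped (adjusted p = 0.0517 to 0.0561), libraries of neither group, which left these fold changes at 0.88 for Clec3b, 0.98 for Lum and 0.34 to 0.35 for Dcn. With only the 2 groups compared in the fit, edgeR called 2 of the 10 markers, Pdgfra and Cd34, and with no filter on low counts it called 4, all but Clec3b and Lum (adjusted p = 0.076 and 0.0737).

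The trained blocks were also set against each other. edgeR called 0 of the 10 markers in 6M_POW_LD against 6M_PoW, beside 2.40% of all genes; 1 was higher at an unadjusted p under 0.05, against 7.09% of all genes, and DESeq2 and limma-voom called 0, beside 5.03% of the 13411 genes with a DESeq2 adjusted p and 2.5% of all genes by limma-voom. The same 1 marker lay above without overlap, against 10.7% of all genes. That marker was Pdgfra, at 28.4 ± 2.96 CPM in 6M_POW_LD and 23.4 ± 1.65 CPM in 6M_PoW (log2 fold change 0.28 ± 0.11, edgeR adjusted p = 0.249). The other 9 had log2 fold changes of -0.01 to 0.16, with SE of 0.09 to 0.36. The treatment field calls the LD libraries sedentary, so the contrast of these 3 libraries with 6M_UT rests on the titles.

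**Figure D3:**
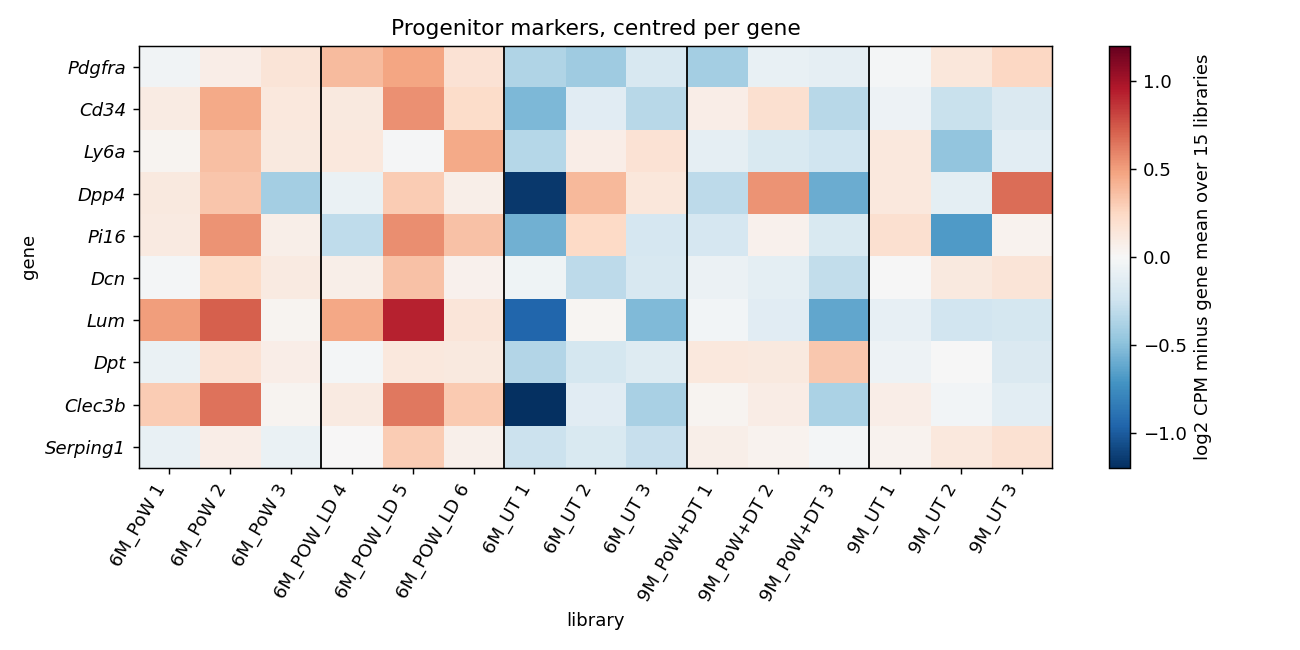
Log2 CPM of each marker minus its mean over the 15 libraries (colour) for the 10 markers (rows) in the 15 libraries (columns, lines between groups). In 6M_UT replicate 1 all 10 markers lie below their mean, and in 6M_PoW replicate 2 and 6M_POW_LD replicate 6 all 10 lie above it.

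In some libraries the markers deviated from their means in the same direction. In 6M_UT replicate 1 all 10 markers were below their own mean, with a median of -0.45 on the log2 scale, and in 6M_POW_LD replicate 5 the median was 0.41 with 9 of 10 above. Within groups the SD of log2 CPM was 0.09 for Serping1, 0.10 for Dpt, 0.13 for Dcn and 0.14 for Pdgfra, but 0.33 for Clec3b, 0.35 for Lum, 0.37 for Pi16 and 0.53 for Dpp4. The highest library held 3.61 times the lowest for Clec3b, 3.69 times for Lum and 3.59 times for Dpp4, against 1.49 times for Serping1 and 1.59 times for Dcn and for Dpt. Without 6M_UT replicate 1, which was the lowest for the first 3 of these, the ratio was 2.05 for Clec3b, 2.93 for Lum and 2.42 for Dpp4. Both Lum and Serping1, at the ends of this range over all 15 libraries, were among the 7 that separated trained from untrained libraries.

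At 9 months, detrained libraries were set against untrained ones to ask what remained 12 weeks after running had stopped. Pdgfra and Dcn were below and Dpt above the untrained libraries without overlap, and the other 7 markers overlapped between the groups. The median log2 fold change was -0.05 over the 10 markers, 2 of which were above 0, and 0.00 over all genes, of which 50.9% were above 0. Leaving out 1 library at a time, the markers' median ranged from -0.14 to 0.01, the last without 9M_PoW+DT replicate 3. edgeR called 0 markers, beside 0.0201% of all genes; at an unadjusted p under 0.05, 1 was higher (3.22% of all genes) and 2 were lower (3.29%), and DESeq2 and limma-voom called 0, beside 0.201% of the 14914 genes with a DESeq2 adjusted p and 0.0% of all genes by limma-voom. In all genes, no overlap occurred in 5.70% with the detrained libraries below and in 6.19% with them above. Under the treatment field, which exchanges the groups, each of these signs turns round.

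Pdgfra stood at 16.8, 20.9 and 20.6 CPM in 9M_PoW+DT and at 21.97, 24.4 and 26.6 CPM in 9M_UT, a log2 fold change of -0.32 ± 0.12 (edgeR adjusted p = 0.679). Dcn stood at 236, 228 and 202 CPM in 9M_PoW+DT and at 246, 269 and 275 CPM in 9M_UT, a log2 fold change of -0.25 ± 0.09 (adjusted p = 0.677). Dpt stood at 25.7, 25.4 and 29.3 CPM in 9M_PoW+DT and at 22.4, 23.3 and 20.9 CPM in 9M_UT, a log2 fold change of 0.27 ± 0.10 (adjusted p = 0.692). Dpt was thus the 1 marker that lay above its age-matched untrained libraries without overlap in each of the contrasts of trained, LD and detrained mice, and none of its fold changes was called.

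For the other 7 the detrained and untrained libraries overlapped. Lum averaged 12.4 ± 2.55 CPM in 9M_PoW+DT and 12.9 ± 0.669 CPM in 9M_UT, and Clec3b 16.4 ± 2.75 and 16.9 ± 1.23 CPM (SD, n = 3 each). Serping1 averaged 45.7 ± 1.46 CPM in 9M_PoW+DT and 48.9 ± 2.39 CPM in 9M_UT, and Cd34 37.5 ± 6.89 and 33.6 ± 2.35 CPM. Their log2 fold changes were -0.06 ± 0.24 for Lum, -0.04 ± 0.24 for Clec3b, -0.09 ± 0.08 for Serping1 and 0.16 ± 0.14 for Cd34 (edgeR adjusted p = 0.981, 0.987, 0.871 and 0.875). Pi16 averaged 16.2 ± 1.61 and 16.3 ± 4.78 CPM, Ly6a 17.8 ± 0.838 and 18.3 ± 3.75 CPM, and Dpp4 2.73 ± 1.19 and 3.38 ± 0.981 CPM in these groups. Within 9M_PoW+DT, replicate 3 had 9 of the 10 markers below their mean over all libraries; without it Lum stood at 0.10 and Clec3b at 0.09.

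The untrained groups of the 2 ages did not share a level for every marker, and age cannot be told apart from library series here. Pdgfra averaged 24.3 ± 2.30 CPM in 9M_UT and 17.8 ± 1.496 CPM in 6M_UT, and Serping1 48.9 ± 2.39 and 38.1 ± 1.31 CPM, in both cases without overlap. Dcn averaged 263 ± 15.03 CPM in 9M_UT and 218 ± 20.6 CPM in 6M_UT, and Clec3b 16.9 ± 1.23 and 12.1 ± 4.20 CPM, also without overlap. For Clec3b the gap was narrow, with the lowest 9M_UT library at 15.8 CPM and the highest 6M_UT library at 15.68 CPM. Without overlap were 4 of the 10 markers, against 5.34% of all 14919 genes with the 9M_UT libraries above. The level of Pdgfra and Dcn in 9M_UT was thus close to that in 6M_PoW, at 23.4 ± 1.65 and 268 ± 23.4 CPM. No test was made between these groups.

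Whether the fold change after detraining differed from that after training was tested directly. It was below 0 for all 10 markers, with a median of -0.42 on the log2 scale (-0.58 to -0.27 when 1 library at a time was left out), against 0.00 over all genes, of which 50.6% were above 0. edgeR called 0 of them, beside 0.0268% of all genes, while 5 were lower at an unadjusted p under 0.05, against 4.69% of all genes. DESeq2 called 2, Pdgfra and Dcn, beside 0.97% of the 11445 genes with a DESeq2 adjusted p. limma-voom called 0, beside 0.0% of all genes. In the lists described below, the median difference was -0.44 for endothelial markers, with 1 of 13 above 0. It was -0.37 for macrophage markers (0 of 10 above 0) and -0.34 for 22 further fibroblast genes (3 above 0). Satellite cell markers had -0.32, and mural and tenocyte markers -0.05 and -0.04. Muscle fibre genes, red cell genes and fat cell markers had medians above 0, at 0.08, 0.44 and 1.53. The log2 difference was -0.71 ± 0.17 for Pdgfra and -0.54 ± 0.13 for Dcn (edgeR adjusted p = 0.222 for each), and the range of the adjusted p over the alternatives was 0.0269 to 0.945 and 0.0322 to 0.946. It was -0.94 ± 0.33 for Lum, -0.90 ± 0.33 for Clec3b, -0.30 ± 0.11 for Serping1 and -0.40 ± 0.20 for Cd34 (adjusted p = 0.388, 0.412, 0.411 and 0.56). Dpt had a difference of -0.03 ± 0.15 (adjusted p = 0.974). With the 9-month groups exchanged, as the treatment field has them, the difference was -0.07 for Pdgfra and -0.05 for Dcn (edgeR adjusted p = 0.945 and 0.946). It was then -0.82 for Lum, -0.81 for Clec3b and -0.72 for Cd34 (adjusted p = 0.692, 0.697 and 0.612). The others were -0.57 for Dpt, -0.385 for Pi16, -0.15 for Ly6a and -0.11 for Serping1, and only Dpp4 was above 0, at 0.20. The markers' median was then -0.27.

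**Figure D4:**
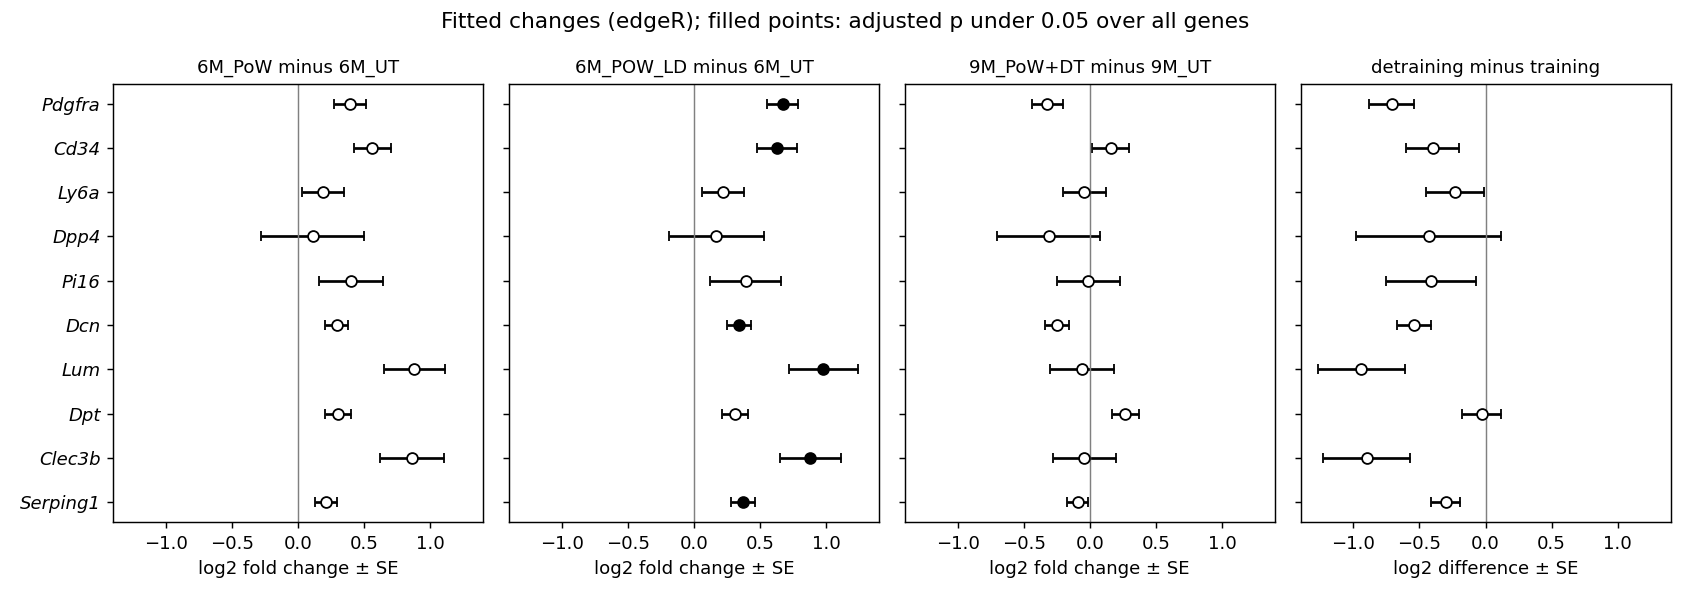
Log2 fold change ± SE from edgeR (x axis) for the 10 markers (rows) in 6M_PoW against 6M_UT, 6M_POW_LD against 6M_UT, 9M_PoW+DT against 9M_UT, and the difference of the detraining and training fold changes. Filled points mark an adjusted p under 0.05 over all genes, which 6 markers have in the LD panel only.

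Other genes of these cells were described from lists, to be read here and in the next paragraphs beside the shares of all genes. Those above 0 were 50.2% in 6M_PoW, 51.2% in 6M_POW_LD and 50.9% after detraining. edgeR called 0.0% in 6M_PoW, 2.15% higher in 6M_POW_LD and 0.0201% after detraining. At an unadjusted p under 0.05, 4.73% were higher in 6M_PoW, and 3.22% were higher and 3.29% lower after detraining. Of 22 further fibroblast and progenitor genes, 18 had a log2 fold change above 0 in 6M_PoW against 6M_UT, with a median of 0.36 and 0 called by edgeR (4 at an unadjusted p under 0.05). In 6M_POW_LD against 6M_UT 19 were above 0, with a median of 0.40, and 3 were called, all higher. These were Smoc2, a matrix protein gene of interstitial fibroblasts, at 57.6 ± 2.40 CPM in 6M_POW_LD and 38.96 ± 4.47 CPM in 6M_UT, Islr (18.2 ± 1.85 and 9.65 ± 2.48 CPM), and the transporter gene Abca8a (40.2 ± 4.74 and 29.3 ± 3.54 CPM; SD, n = 3 each). Their log2 fold changes were 0.56 ± 0.12, 0.91 ± 0.19 and 0.45 ± 0.10 (edgeR adjusted p = 0.0103, 0.0103 and 0.0183). After detraining the list had a median of -0.10, with 10 of 22 above 0 and 0 called by edgeR (1 higher and 1 lower at an unadjusted p under 0.05). Abca8a stood at 30.4 ± 1.202 CPM in 9M_PoW+DT and 36.6 ± 0.762 CPM in 9M_UT (log2 fold change -0.27 ± 0.10, edgeR adjusted p = 0.69). Thy1, a surface glycoprotein gene of fibroblasts, stood at 4.06 ± 0.691 and 2.55 ± 0.703 CPM (0.67 ± 0.31, adjusted p = 0.758).

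Among genes of immature, Dpp4-positive fibroblasts, which include Pi16 and Dpp4, 9 of 10 were above 0 in 6M_PoW, with a median of 0.24, and 0 were called by edgeR (1 at an unadjusted p under 0.05). In 6M_POW_LD the median was 0.29 and the fibronectin gene Fn1 was called, at 62.7 ± 13.9 CPM against 32.3 ± 5.65 CPM in 6M_UT (log2 fold change 0.96 ± 0.23, edgeR adjusted p = 0.0345). The median of this list was -0.19 after detraining. Genes of activated, contractile fibroblasts, with 7 of 10 tested, had medians of 0.17 in 6M_PoW, 0.20 in 6M_POW_LD and 0.10 after detraining. edgeR called 0 of them. At an unadjusted p under 0.05, 1 was higher in 6M_PoW and 2 were higher in 6M_POW_LD, where 9.72% of all genes were higher at that p. After detraining 1 was lower at that p, against 3.29% of all genes. This was Tgfbi, at -0.38 ± 0.12 (edgeR adjusted p = 0.646). Among factors that these progenitors release, with 7 of 10 tested, the growth factor gene Igf1 was called in 6M_POW_LD, at 11.6 ± 2.01 CPM against 4.65 ± 0.860 CPM in 6M_UT (log2 fold change 1.32 ± 0.22, edgeR adjusted p = 0.00186); muscle fibres and macrophages also make it. The medians of that list were 0.11 in 6M_PoW, 0.12 in 6M_POW_LD and -0.02 after detraining.

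Lum and Dcn belong to the family of small leucine-rich proteoglycans, of which 12 of 14 listed genes were in the table. In 6M_PoW 11 of the 12 were above 0, with a median of 0.35, and edgeR called 0 (6 at an unadjusted p under 0.05). In 6M_POW_LD the median was 0.53 and edgeR called 4, all higher, namely Ecm2, Dcn, Prelp and Lum. Ecm2 stood at 17.5 ± 1.41 CPM in 6M_POW_LD and 10.8 ± 0.724 CPM in 6M_UT (log2 fold change 0.69 ± 0.14, edgeR adjusted p = 0.00958), and Prelp, which links collagen to cell-surface sugars, at 26.3 ± 4.42 and 18.1 ± 3.52 CPM (0.54 ± 0.15, adjusted p = 0.0441). After detraining the median was -0.07, with 3 of 12 above 0.

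Pdgfra is 1 of 6 listed genes of platelet-derived growth factors and their receptors. The ligand genes were not called in any comparison. Pdgfa, whose product binds the receptor encoded by Pdgfra, averaged 19.5 ± 1.24 CPM in 6M_PoW, 17.3 ± 4.39 CPM in 6M_POW_LD and 15.5 ± 5.03 CPM in 6M_UT. Pdgfrb, the receptor gene of pericytes and smooth muscle, averaged 29.2 ± 1.52, 29.8 ± 2.53 and 22.5 ± 3.83 CPM, with log2 fold changes of 0.38 ± 0.14 in 6M_PoW and 0.41 ± 0.14 in 6M_POW_LD (edgeR adjusted p = 0.405 and 0.0965).

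Serping1 was set beside 11 other complement genes. In 6M_PoW 11 of the 12 were above 0, with a median of 0.33, and edgeR called 0 (3 at an unadjusted p under 0.05). In 6M_POW_LD 2 were called higher, Serping1 and C1s1, a gene of the C1s protease that the C1 inhibitor blocks. C1s1 stood at 26.5 ± 2.10 CPM in 6M_PoW, 25.5 ± 1.72 CPM in 6M_POW_LD and 18.7 ± 0.666 CPM in 6M_UT, with log2 fold changes of 0.51 ± 0.12 and 0.45 ± 0.11 (edgeR adjusted p = 0.163 and 0.0302). Of 10 listed genes of the Ly6 family 5 were in the table and 3 were tested, with no call. Ly6c1, a vessel marker of that cluster, averaged 37.2 ± 2.97, 39.3 ± 5.28 and 35.4 ± 6.74 CPM in 6M_PoW, 6M_POW_LD and 6M_UT.

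The genes most like the markers were sought over the 15 libraries by the root mean square difference between a gene's centred log2 CPM and the markers' median. Among 9587 other genes with a mean log2 CPM of at least 2, the 8 closest were Peak1 (0.094), Ids (0.112), Ecm2 (0.114), Lrp1 (0.115), Tgfbr2 (0.120), Slc38a10 (0.120), Tmsb4x (0.123) and Smurf1 (0.127). The median over all these genes was 0.282, and a gene with no variation would have 0.212. Of the markers themselves Cd34 was closest at 0.104, then Dcn at 0.149 and Serping1 at 0.156, while 5 of the 10 were farther than a flat profile, namely Ly6a at 0.216, Pi16 at 0.237, Clec3b at 0.240, Lum at 0.301 and Dpp4 at 0.376. Each marker is part of the median it was compared with, unlike the other genes, so their distances are not on equal terms.

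Markers of several other cell types also had median log2 fold changes above 0 in the 6-month comparisons. Macrophage markers, with 10 of 12 genes tested, had a median log2 fold change of 0.45 in 6M_PoW and 0.59 in 6M_POW_LD, with 10 of 10 above 0 in both; edgeR called 1 of them, the lysozyme gene Lyz2, in 6M_POW_LD (33.9 ± 5.82 CPM, against 20.07 ± 1.501 CPM in 6M_UT; log2 fold change 0.76 ± 0.14, adjusted p = 0.00344). Their summed level was 71.6 to 93.3 CPM in 6M_PoW, 77.9 to 91.6 in 6M_POW_LD and 50.8 to 59.1 in 6M_UT. Endothelial markers had medians of 0.27 and 0.32 over 13 genes, with sums of 432 to 481, 403 to 495 and 356 to 405 CPM in these groups and 0 called by edgeR (6 and 3 higher at an unadjusted p under 0.05, against 4.73% and 9.72% of all genes), and mural markers medians of 0.30 and 0.33 over 8 genes. Tenocyte markers had medians of 0.22 and 0.55 and Schwann cell markers 0.12 and 0.83, with the highest Schwann cell sum in 6M_POW_LD replicate 5. Fat cell markers had medians of -0.33 and -0.42 over 7 genes, and 8 muscle fibre genes -0.08 and 0.03. Of the fibre genes, edgeR called 2 higher and 1 lower in 6M_POW_LD against 6M_UT. With RLE in place of TMM scaling, edgeR called 320 of all 15181 genes higher and 451 lower in this comparison. Acta1 stood at 0.33 ± 0.07 and Myh1 at 0.43 ± 0.10, and Actn3 at -0.77 ± 0.15 (adjusted p = 0.00721, 0.0238 and 0.0137). Satellite cell markers had medians of 0.30 and 0.44. Red cell genes had medians of -0.10 and 1.12, with sums of 504, 695 and 3112 CPM in 6M_POW_LD and 326 to 893 CPM in 6M_UT, so that 1 LD library, replicate 6, stood apart. Of the lymphocyte markers in the table, 4 of 5 were under 0.5 CPM on average. After detraining the medians were 0.08 for macrophage, -0.19 for endothelial (0 of 13 above 0), 0.14 for mural and 1.06 for fat cell markers. They were 0.21 for tenocyte, 0.17 for Schwann cell and -0.26 for satellite cell markers, 0.37 for red cell genes and 0.03 for fibre genes. The fat cell sums were 111, 126 and 199 CPM in 9M_PoW+DT and 119 to 132 CPM in 9M_UT. Fabp4 made up most of the mean sums, at 95.5 ± 11.95 and 100.6 ± 2.85 CPM, while 6 of the 7 fat cell markers had a log2 fold change above 0. The highest fat cell sum was in replicate 3 of 9M_PoW+DT, in which 9 of the 10 progenitor markers lay below their mean. The part of these cell types in the levels of the shared markers was not tested.

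**Figure D5:**
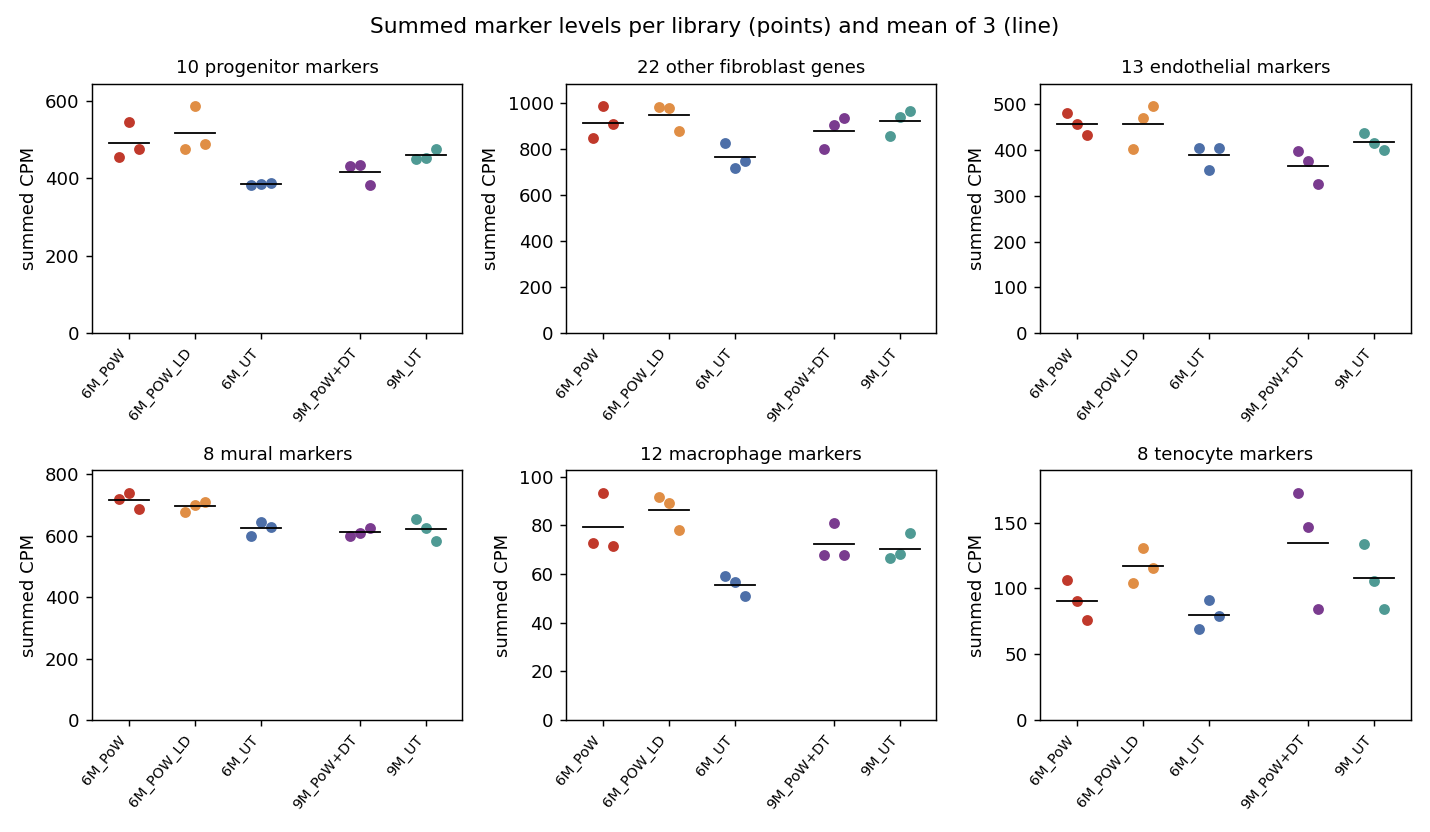
Summed CPM (y axis, from 0) of the 10 progenitor markers and of 5 other lists in each library of the 5 groups (x axis), with points for libraries and lines for means of 3. The sums of progenitor markers, other fibroblast genes, mural markers and macrophage markers lie higher in every 6M_PoW and 6M_POW_LD library than in any 6M_UT library. Those of endothelial and tenocyte markers overlap.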

How the data were processed

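Plantaris RNA of 15 libraries in 5 groups was compared. The deposited values are expected counts, not normalized; in each library 26.9% to 31.9% had a fractional part. Per the submitters' processing notes, STAR 2.7.3a, DESeq2, Partek and mm10 were involved; roles are not stated, nor are the counter, its use of strand or its annotation. Starts are as deposited and ends are the deposited stop less 1, which matched GENCODE M21 for all 10 markers; exon lengths came from that annotation.

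Counts were rounded, filtered with filterByExpr and scaled by TMM. Quasi-likelihood models with 1 mean per group were fitted in edgeR 4.0.16 (R 4.3.3) to 12 libraries (14919 genes) for training, detraining and their difference, and to 15 libraries (15181 genes) for 6M_POW_LD. P-values were adjusted by Benjamini-Hochberg over all genes, with calls under 0.05. The fits were tested on simulated counts. Alternatives were DESeq2 1.42.0, limma-voom (limma 3.58.1), other scaling and filters, other groupings, a replicate block and leaving out each library. Replicate libraries were not duplicates. Named genes are the markers, called or lowest-p genes of fixed lists, and the 8 most alike genes; Pdgfa was named for its role. Markers and lists were chosen with earlier results of these data known.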

Additional observations from a re-analysis of the deposited data

How the results depend on the processing

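Each group holds 3 replicates, which limits precision; Dpp4, with 29 to 104 counts per library, is limited by depth as well. With no filter on low counts edgeR called 8 genes in training and 10 in the difference, and with CPM above 1 in every library 0 in detraining. DESeq2 called 112 genes in training (3 markers), 30 in detraining, 111 in the difference (2 markers), 1190 in 6M_POW_LD against 6M_UT and 675 in 6M_POW_LD against 6M_PoW. limma-voom called 0 genes in detraining and 0 in the difference, and put Pi16 at 0.01444 in detraining. With only the groups compared, edgeR called 4 genes in training, 18 in detraining and 387 in 6M_POW_LD against 6M_UT, with 2 markers. With the LD libraries added to the trained group, 29 genes were called in training and 2 in the difference. With them added to the untrained group, the markers' median in training was 0.1239, 1 gene was called in the difference and Dpt stood at 0.1355 there. Exchanging the 9-month groups turns each detraining sign by construction, to 0.3219 for Pdgfra, -0.1588 for Cd34, 0.04458 for Clec3b, 0.0938 for Serping1, 0.06033 for Lum, 0.2451 for Dcn, -0.2729 for Dpt, 0.01025 for Pi16, 0.0442 for Ly6a and 0.311 for Dpp4; in the difference 0 genes were then called and Dpp4 stood at 0.1962. Apart from that exchange, the cause of these changes was not tested. Pairing by replicate number was examined through each library's deviations from its group's mean log2 CPM. Between same-numbered libraries of the groups compared, these correlated at -0.081 to 0.127. The highest correlation with a differently numbered library was -0.012 to 0.127. Correlations this weak, with 3 libraries a group, cannot settle whether the numbers pair the samples. With the replicate block edgeR called 1 gene in training, 2 in detraining and 4 in the difference, with 0 markers in each. No paired analysis was possible because the LD libraries share no replicate number with 6M_UT or 6M_PoW, for the comparisons of 6M_POW_LD. Leaving out 1 library at a time gave 0 to 10 genes called in training, 1 to 6 in detraining, 0 to 26 in the difference, 288 to 827 in 6M_POW_LD against 6M_UT (1 to 6 markers) and 157 to 428 in 6M_POW_LD against 6M_PoW. The log2 fold change of Dpp4 ranged from -0.2219 to 0.4214 in training and from -0.1634 to 0.4804 in 6M_POW_LD against 6M_UT. In detraining Clec3b ranged from -0.1322 to 0.08617, Lum from -0.1789 to 0.09758, Pi16 from -0.2294 to 0.1644 and Ly6a from -0.1861 to 0.1088, and in the difference Dpt from -0.0971 to 0.0321. In 6M_POW_LD against 6M_PoW, Cd34 ranged from -0.06741 to 0.1913, Clec3b from -0.1361 to 0.1972, Dcn from -0.05328 to 0.1147, Dpt from -0.0543 to 0.07091, Lum from -0.1374 to 0.2643, Ly6a from -0.1175 to 0.1277, Pi16 from -0.1951 to 0.2026 and Dpp4 from -0.1189 to 0.2336.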
